A study of Homo sapiens with 12 samples.

Results

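SREBP2-only sites outside acetylated chromatin were examined in HCC70 cells, a widely used human line from a triple-negative breast tumour. The sites were chosen by their peak calls. A region of the SREBP2 list from vehicle-treated cells on chromosomes 1 to 22 and X was taken when it shared no base with any RORγ region and no base with any H3K27ac region called from the vehicle libraries. This rule selected 51291 of 117441 SREBP2 regions, or 43.7%. Of the other SREBP2 regions, 34116 overlapped RORγ without H3K27ac, 8615 overlapped H3K27ac without RORγ, and 23419 overlapped both.

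Cells had received vehicle or the RORγ antagonist XY018 for 24 h before chromatin immunoprecipitation sequencing. The dose of this small molecule was 5 µM by the labels, while the study's methods state a smaller one. Antibodies against SREBP2, RORγ and H3K27ac were each applied to 1 vehicle and 1 XY018 library of the same unmodified line, so no difference between treatments has a replicate check and no p-value was computed. Sequencing depth, computed from the peak values, came to 5.56 tags per kb for SREBP2 with vehicle and 5.92 with XY018, and between 3.65 and 6.16 for the other 4 libraries. H3K27ac vehicle regions lay at the promoters of 7 of 10 basal breast markers and 5 of 8 luminal and hormone receptor markers. Among the basal markers, KRT6A, KRT6B and KRT14 had none, and ESR1 was among the luminal markers that had one. The H3K27ac lists were excerpts of longer ones, since the vehicle list had 95100 peaks with numbers up to 245055, so "outside acetylated chromatin" means outside the deposited H3K27ac regions.

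SREBP2 is a membrane-bound precursor in the endoplasmic reticulum that is cleaved when sterols are low, and its released part enters the nucleus and activates genes of cholesterol synthesis and uptake through the sterol regulatory element (SRE). RORγ is a nuclear receptor that binds a receptor half-site preceded by an AT-rich stretch, the ROR response element (RORE). H3K27ac is a histone mark of active promoters and enhancers. Alu elements are short interspersed repeats of primate genomes that derive from 7SL RNA, the RNA of the signal recognition particle, and they are most frequent in introns and gene-rich DNA.

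The sequences at the summits of the strongest sites are shown first, because they illustrate the GC-rich sequence that the stronger sites shared. Each sequence is the 200 bp around the summit on the plus strand of hg19 (GRCh37), with the coordinates of the region after the name of the nearest protein-coding gene. The first group holds 5 of the 10 sites with the highest fold, and capitals mark GC boxes (GGGCGG) or E-boxes (CACGTG) on either strand.
MLN-distal site, chr6:33802411-33802860: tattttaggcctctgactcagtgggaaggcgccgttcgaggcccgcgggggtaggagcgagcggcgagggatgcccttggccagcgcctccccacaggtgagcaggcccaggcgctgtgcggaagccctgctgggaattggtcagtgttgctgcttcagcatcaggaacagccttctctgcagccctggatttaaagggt
BIRC7-distal site, chr20:61860722-61861044: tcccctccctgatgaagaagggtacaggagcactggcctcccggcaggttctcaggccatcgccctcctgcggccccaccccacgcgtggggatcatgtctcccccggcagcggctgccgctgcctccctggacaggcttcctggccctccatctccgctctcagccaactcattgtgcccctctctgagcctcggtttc
ZNF816-ZNF321P intron site, chr19:53449666-53450068: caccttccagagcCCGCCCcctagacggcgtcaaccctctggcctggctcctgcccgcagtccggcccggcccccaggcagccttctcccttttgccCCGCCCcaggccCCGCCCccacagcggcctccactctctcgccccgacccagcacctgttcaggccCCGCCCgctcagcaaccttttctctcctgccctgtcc
SPSB1 exon site, chr1:9416112-9416490: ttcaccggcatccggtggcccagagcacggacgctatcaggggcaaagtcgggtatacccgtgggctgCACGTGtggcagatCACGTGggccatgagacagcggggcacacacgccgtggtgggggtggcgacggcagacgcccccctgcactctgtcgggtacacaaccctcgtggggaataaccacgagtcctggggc
CCDC61 intron site, chr19:46519896-46520291: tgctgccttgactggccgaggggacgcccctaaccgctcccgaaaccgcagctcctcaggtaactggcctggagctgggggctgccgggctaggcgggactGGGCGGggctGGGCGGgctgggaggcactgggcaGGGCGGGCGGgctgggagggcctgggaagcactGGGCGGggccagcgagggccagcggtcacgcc

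The second group holds 3 of the 5 sites with the highest fold among those with an SRE (TCACNCCAC, either strand) within 100 bp of the summit, and capitals mark the SRE.
AFDN-distal site, chr6:168045435-168045738: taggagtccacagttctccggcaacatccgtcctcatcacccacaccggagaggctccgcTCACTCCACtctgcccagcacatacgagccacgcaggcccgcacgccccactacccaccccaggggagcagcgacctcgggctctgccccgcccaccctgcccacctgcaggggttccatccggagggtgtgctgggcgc
FOXN4 exon site, chr12:109719196-109719812: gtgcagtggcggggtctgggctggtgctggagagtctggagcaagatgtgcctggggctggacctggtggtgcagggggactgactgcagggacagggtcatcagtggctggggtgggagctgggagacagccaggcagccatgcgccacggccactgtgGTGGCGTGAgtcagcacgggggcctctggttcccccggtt
LHPP intron site, chr10:126291558-126291953: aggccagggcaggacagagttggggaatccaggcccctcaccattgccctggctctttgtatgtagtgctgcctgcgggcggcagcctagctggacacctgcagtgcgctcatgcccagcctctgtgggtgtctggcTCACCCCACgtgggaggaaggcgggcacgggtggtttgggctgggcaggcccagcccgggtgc

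SREBP2-only sites were the weakest class of SREBP2 regions, a property that the choice of the sites can carry and that is given as a description. The deposited fold compares the pileup at the summit with the local background, with 1 added to both. Fold ranged from 1.90 to 18.2 with a median of 3.57, and the number of fragments at the summit from 4 to 60 with a median of 7. The median was 12 fragments in regions with RORγ alone, 10 in those with H3K27ac alone and 31 in those with both. Median width was 215 bp, and the sites covered 12.7 Mb. At q of at most 0.05 there were 84.2% of them, at q of at most 0.01 57.6%, and at q of at most 1e-05 13.3%. The median distance to the nearest RORγ or H3K27ac vehicle region was 2.17 kb, and it was 2.82 kb to RORγ and 15.5 kb to H3K27ac.

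Sites at the edge of the rule resembled the regions just beyond it. The 2440 sites within 100 bp of a RORγ or H3K27ac region had a median of 8 fragments, and 17.8% of them were called in SREBP2 with XY018. The 1463 regions just outside the rule, which shared at most 50 bp with such regions, had a median of 7 fragments, and 16.1% were called. Over 1 kb from such regions lay 34770 sites, of which 7.09% were called with XY018.

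The next question was which of these sites were also called in the libraries from XY018-treated cells, which the rule did not use. In SREBP2, 4610 sites were called (8.99%, exact 95% interval 8.74 to 9.24%), against 39.8% of all SREBP2 vehicle regions. In RORγ, 9092 sites were called (17.7%, 17.4 to 18.1%), against 46.7% of all. In H3K27ac, 2659 sites were called (5.18%, 4.99 to 5.38%), against 26.7% of all. All 3 shares were below those of the whole list, and these intervals cover counting error only. The whole list keeps regions with a RORγ or H3K27ac call with vehicle, which the rule removed. Its RORγ and H3K27ac shares are therefore no like comparison. Some of these sites lay under XY018 regions that also overlapped a vehicle region of the same antibody. They were 663 of the 9092 called in RORγ (7.29%) and 370 of the 2659 called in H3K27ac (13.9%). With XY018, RORγ was called at 20.9% of regions with H3K27ac alone, and H3K27ac at 6.41% of those with RORγ alone. No XY018 library gave a call at 37327 sites, or 72.8%, and all 3 did at 90 sites.

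Calls of SREBP2 and RORγ with XY018 often fell on the same sites. Of the 4610 sites called in SREBP2 with XY018, 40.1% (38.7 to 41.5%) were also called in RORγ, against 15.5% (15.2 to 15.9%) of the sites that were not. For H3K27ac the shares were 5.64% (4.99 to 6.35%) and 5.14% (4.94 to 5.34%), whose intervals overlap. The strength of the vehicle region, described next, moved with these shares, and its part in them was not tested.

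Strength in the vehicle library went with the calls of both factors, and with those of the mark mainly up to 10 fragments. At sites of 4 or 5 fragments, 3.24% were called in SREBP2 and 10.9% in RORγ with XY018. At sites of 9 or 10 fragments the shares were 9.50% and 19.2%, and at the 855 sites of 20 to 29 fragments 48.4% (45.0 to 51.8%) and 56.8% (53.4 to 60.2%). At the 116 sites of 30 to 60 fragments they were 70.7% (61.5 to 78.8%) and 75.9% (67.0 to 83.3%). H3K27ac was called at 3.34% of the sites of 4 or 5 fragments, at 6.58% (6.07 to 7.12%) of those of 9 or 10 and at 7.76% (3.61 to 14.2%) of the strongest. RORγ regions called with XY018 thus lay at most of the strongest sites, although the rule had left out every site with a RORγ call with vehicle.

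**Figure D1:**
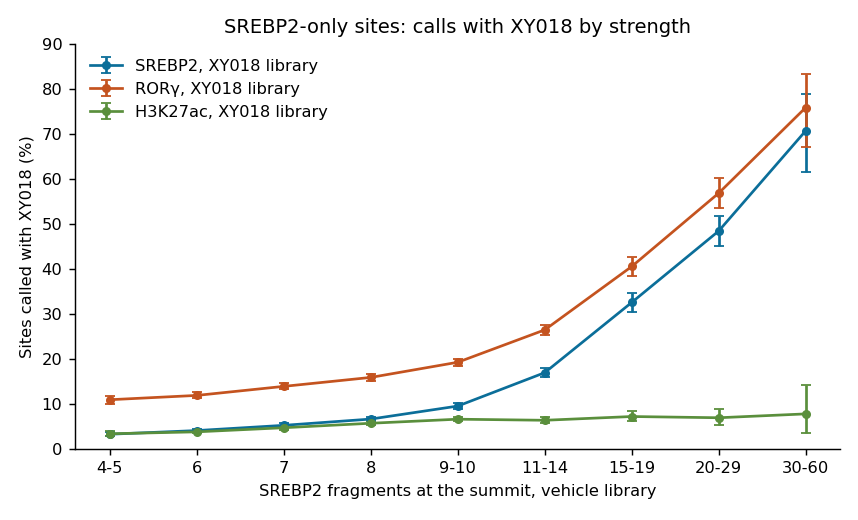
Share of SREBP2-only sites called in each XY018 library (percent, y axis) by the number of SREBP2 fragments at the summit in the vehicle library (x axis); bars are exact 95% binomial intervals. SREBP2 rises from 3.24% to 70.7% and RORγ from 10.9% to 75.9%, while H3K27ac stays between 3.34% and 7.76%.

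Because the sites were weak, their called share was compared with that of other SREBP2 regions at like fold. Averaged over 10 classes of vehicle fold, the share called in SREBP2 with XY018 was 17.2 percentage points lower (16.4 to 17.9) in SREBP2-only sites than in regions with RORγ alone, whose crude shares were 8.99% and 52.2%. Against regions with H3K27ac alone, with a crude share of 27.5%, it was 7.42 points lower (6.63 to 8.21). The sites were lower in each of the 10 classes in both comparisons. In the lowest class the shares were 5.80% and 14.1% against RORγ regions, and in the highest 69.1% and 97.9%. The gap to RORγ regions was widest in class 8 (fold 4.88 to 6.41), at 18.2% and 50.7%, and class 9 (6.41 to 9.86), at 37.8% and 79.8%. In class 4, with most SREBP2-only sites (6918), the shares were 4.87% and 12.75%. Each class had equal weight in the average, though the highest held 298 of the sites. The highest class runs from a fold of 9.86 to 39.4, and no SREBP2-only site lay above 18.2, so like fold is only approximate there. Classes 8 and 9 are also wide, so this limit holds for them too.

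**Figure D2:**
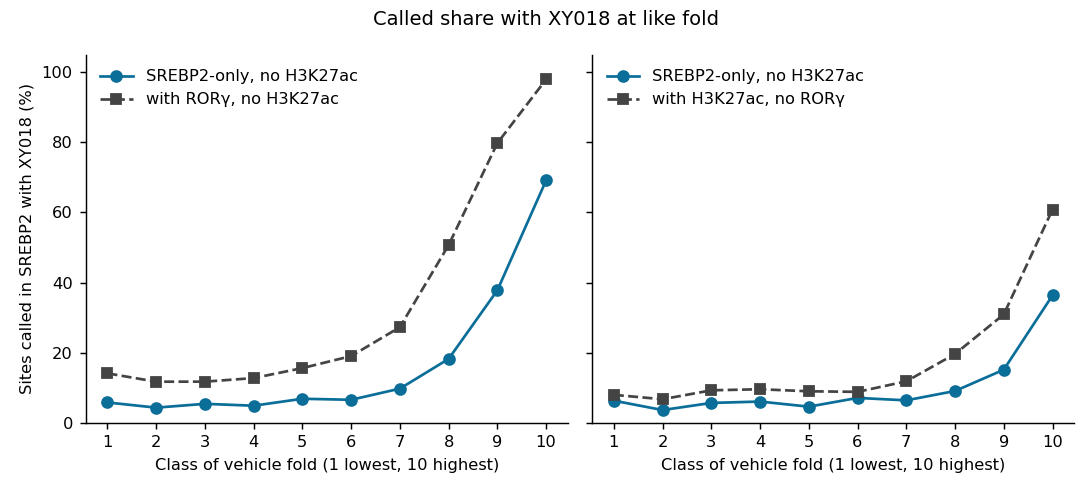
Share of SREBP2 vehicle regions called in SREBP2 with XY018 (percent, y axis) in 10 classes of vehicle fold (x axis), for SREBP2-only sites (circles) and for regions with RORγ alone (left, squares) or H3K27ac alone (right, squares). SREBP2-only sites are lower in every class, by 17.2 points on average on the left and 7.42 on the right.

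At the 4610 sites called in both SREBP2 libraries, the median was 10 fragments with vehicle and 8 with XY018. Divided by the genome-wide background of each library, the XY018 to vehicle ratio had a median of 0.677 (95% interval of the median 0.659 to 0.677, quartiles 0.494 and 0.847), and 86.6% of the sites were lower with XY018. The median was 0.608 for regions with RORγ alone and 0.552 for those with H3K27ac alone. Over all SREBP2 vehicle regions called in both libraries it was 0.612, and 94.3% of them were lower with XY018. This ratio leaves out the 46681 sites without a call. The pairing also matters, because 263 of the XY018 regions spread over another SREBP2 vehicle region. There the median ratio was 0.968, against 0.659 at the 4347 sites where the XY018 region met no other vehicle region, of which 2 had a ratio over 2.

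The same rule was applied to the XY018 lists to see the reverse direction. It gave 21457 of 69700 SREBP2 regions (30.8%), with a median of 7 fragments. Of these, 22.9% (22.4 to 23.5%) were called with vehicle, against 70.2% of all XY018 regions, and 2558 of them met an SREBP2-only vehicle site. At the 4916 regions called in both, the XY018 to vehicle ratio had a median of 0.647, and 88.7% were lower with XY018. Called shares below those of the whole list and ratios under 1 were thus found whichever treatment chose the sites. The rule picks weak regions in both lists, so the lower called shares are a description, and the part of strength in them was not tested. The ratios of the 4916 regions also include those that met vehicle regions outside the rule. Ratios under 1 were also found over all SREBP2 vehicle regions called in both, with a median of 0.612. The vehicle and XY018 lists hold 117441 and 69700 regions, so the called shares of the directions are not directly comparable.

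The 10 sites with the highest fold had 31 to 48 fragments with vehicle and a GC content of 62.7 to 75.6%. With XY018, 9 of them were called in SREBP2, 7 in RORγ and 2 in H3K27ac. Over all SREBP2-only sites the shares were 8.99%, 17.7% and 5.18%. At the 116 sites of 30 to 60 fragments they were 70.7%, 75.9% and 7.76%. The site with the highest fold, 30.8 kb from the MLN gene of the gut hormone motilin, had 36 SREBP2 fragments in the vehicle library (exact Poisson interval 25.2 to 49.8) and 19 in the XY018 library (11.4 to 29.7), and 15 fragments in RORγ with XY018. The intervals of its SREBP2 values overlap. The next lay 48.0 kb from CCND1, the gene of the cell cycle regulator cyclin D1, and had 34 (23.6 to 47.5) and 11 (5.49 to 19.7) fragments, with no overlap of the intervals. The site near BIRC7, an inhibitor of apoptosis, had 32 fragments (21.9 to 45.2) and was the only one of the 10 not called in any XY018 library.

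In the SPSB1 exon, 0.508 kb from a transcript start, 40 fragments with vehicle stood beside 23 with XY018, and the summit sequence printed above holds 2 E-boxes. SPSB1 encodes a substrate adaptor of a ubiquitin ligase. The ZNF816-ZNF321P site holds 4 GC boxes and had 35 and 20 fragments. The CCDC61 site holds 5, had 38 and 28 fragments, and was called in both RORγ (8 fragments) and H3K27ac (15) with XY018. Its nearest RORγ vehicle region lay 193 bp away. The remaining sites of the 10 had the starts of KLF2, SDK2, FZD9 and PDGFA as the nearest protein-coding ones, 41.0, 98.7, 4.3 and 29 kb away. These sites had 31, 48, 35 and 37 fragments with vehicle and 19, 24, 10 and 34 with XY018. The site nearest to PDGFA lay in an exon of PRKAR1B. The ratio of background-scaled values over the 9 called sites ran from 0.242 at the site nearest to FZD9, a receptor gene for Wnt ligands, to 0.778 at that nearest to PDGFA, a growth factor gene, whose XY018 region also spread over another SREBP2 vehicle region. Since these sites were picked by their vehicle value, the lower values with XY018 are a description.

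The 5 sites with the highest fold with XY018 were of another kind. They had 6 to 24 fragments with vehicle and ratios of 1.69 to 6.77. At all 5, in SP4, SDCCAG8 and MSLN and closest to FAM20C and PRMT8, the XY018 region spread over another SREBP2 vehicle region, and its summit lay 472 to 2061 bp from that of the site. These ratios are therefore not those of the sites themselves.

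The positions of the sites differed from those of the other SREBP2 regions. Introns held 50.04% (49.6 to 50.5%) of the sites, intergenic DNA 31.8% (31.4 to 32.2%), promoters 9.75% (9.50 to 10.0%) and exons 8.39% (8.15 to 8.63%). A promoter was the stretch of 1000 bp before and 100 bp after a transcript start of any annotated gene. It held 19.9% (19.5 to 20.4%) of the regions with RORγ alone, 38.5% (37.5 to 39.6%) of those with H3K27ac alone and 59.5% (58.9 to 60.1%) of those with both. The median distance of the sites to a protein-coding transcript start was 15.1 kb, and for the other classes, in the same order, it was 13.5, 2.17 and 0.613 kb. Among sites of 4 or 5 fragments 6.46% lay in promoters, and among those of 20 to 29 fragments 23.4%. Sites called in SREBP2 with XY018 lay in promoters in 15.6% (14.6 to 16.7%) of cases.

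**Figure D3:**
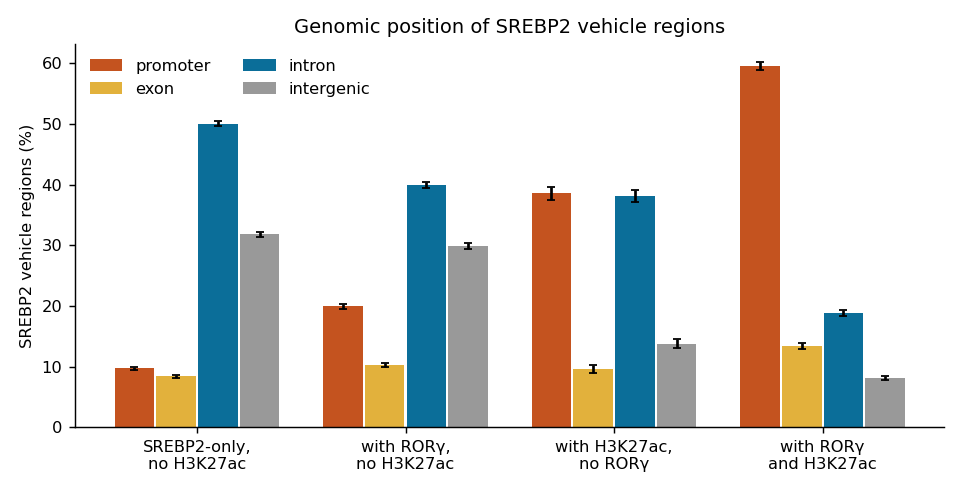
Share of SREBP2 vehicle regions (percent, y axis) in promoters, exons, introns and intergenic DNA, in 4 classes of regions (x axis); bars are exact 95% binomial intervals. The SREBP2-only sites have 50.04% in introns and 9.75% in promoters, against 59.5% in promoters for regions with both RORγ and H3K27ac.

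The density of sites was uneven along the genome. It ran from 6.41 sites per Mb on chromosome 4 to 61.2 on chromosome 22, while the share of SREBP2 regions that were SREBP2-only stayed between 36.7 and 53.0% on every chromosome. Of the sites, 19.9% lay within 5 Mb of a chromosome end, which holds 7.57% of the sequence, and the share was 33.0% for regions with RORγ alone. Of 3053 windows of 1 Mb, 2823 held a site, and 442 of them held 50% of all sites. The 5 richest windows held 150 sites at chr20:61000001-62000000, 145 at chr10:134000001-135000000, 143 at chr8:142000001-143000000, 129 at chr9:136000001-137000000 and 127 at chr1:3000001-4000000. The nearer edge of each of these lay within 5 Mb of a chromosome end.

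Bodies of protein-coding genes held 55.3% of the sites, in 9301 genes. PTPRN2, a receptor-type phosphatase gene of secretory vesicles at 157331750 to 158380515 on chromosome 7, had the most, with 100 sites, of which 12 were called in SREBP2 with XY018, against 8.99% of all SREBP2-only sites. GSE1 followed with 78, RBFOX1, a gene of a neuronal splicing factor, with 68, TRAPPC9 with 62 and SHANK2, a gene of a synaptic scaffold, with 59. MAD1L1 held 57, TAFA5 56, CAMTA1 and CDH4 54 each, and PRDM16 52. These are long genes, and per 100 kb their density ran from 2.75 sites in RBFOX1 to 15.5 in TAFA5, against 1.81 over the genome. PTPRN2 also held 161 other SREBP2 regions and MAD1L1 196, while RBFOX1 held 43.

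Genes of sterol synthesis were looked at within 5 kb of their transcript starts. Of 21 cholesterol biosynthesis genes, 6 had an SREBP2-only site (28.6%, 11.3 to 52.2%), an interval that includes the 39.6% of all protein-coding genes, whereas 20 of 21 had some SREBP2 region. MVD, which makes isopentenyl diphosphate, had the strongest, with 12 fragments 481 bp from a start and no call with XY018. At MSMO1, which removes methyl groups from sterol rings, a site 254 bp from a start had 11 fragments in the vehicle library (5.49 to 19.7) and 5 in the XY018 library (1.62 to 11.7), and these intervals overlap. It was the only one of 10 sites near these genes that was called in SREBP2 with XY018, a share close to the 8.99% of all SREBP2-only sites.

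Of 10 SREBP regulators and uptake genes, 5 had a site (50%, 18.7 to 81.3%), against 39.6% of all protein-coding genes. Among the 5 was SREBF1, the gene of the related factor SREBP1. Its site, 280 bp from a start, had a fold of 6.90, with 13 fragments in SREBP2 under each treatment and 7 in RORγ with XY018. Of the 7 sites near genes of this list, 4 held Alu-type sequence. Of 8 fatty acid synthesis genes 3 had a site (37.5%, 8.52 to 75.5%). At FADS2, a desaturase gene, a site 113 bp from a start had 12 fragments in the vehicle library (6.20 to 21.0) and 6 in the XY018 library (2.20 to 13.1). Of 11 circadian genes 5 had a site (45.45%, 16.75 to 76.6%), led by PER1 with 15 and 9 fragments. The intervals of these gene lists each include the 39.6% of all protein-coding genes. At the start of DBP, a clock output gene, a site of 8 fragments lay 20 bp from the nearest H3K27ac vehicle region and overlapped an H3K27ac region of 194 fragments called with XY018.

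Gene families that breast cells are not known to use were also counted. Of 414 olfactory receptor genes 11.4% (8.46 to 14.8%) had one within 5 kb, and of 94 keratin-associated protein genes 22.3% (14.4 to 32.1%). The whole SREBP2 list lay near 16.7% and 43.6% of these genes, against 81.1% of all protein-coding genes.

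The sequence at the summits fell into kinds that moved with strength. Mean GC content within 100 bp of the summit was 55.8% (SD 8.33), against 46.9% in windows 1000 bp to either side. It was 63.3% in regions with RORγ alone, 62.5% in those with H3K27ac alone and 72.5% in those with both. Within the SREBP2-only sites it was 51.7% at 4 or 5 fragments and 65.7% at 20 to 29 fragments.

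Repeats were found at many of the weaker sites. A window was called 7SL-type when it held a 14-base word that occurs at least 2000 times in the genome and is also part of the 7SL RNA gene RN7SL2. Such words lay at 29.3% (28.9 to 29.7%) of the summits and in 10.5% of the flanks. The share was 15.4% (14.99 to 15.8%) in regions with RORγ alone, 16.6% (15.8 to 17.4%) in those with H3K27ac alone and 1.16% (1.02 to 1.30%) in those with both. It was 36.7% (35.4 to 38.1%) at sites of 4 or 5 fragments, 13.5% (12.6 to 14.4%) at 11 to 14 and 0.468% (0.128 to 1.19%) at 20 to 29. By the study's methods only uniquely mapped, deduplicated tags of single-end reads entered peak calling, and how well reads could be placed at these sites was not tested.

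**Figure D4:**
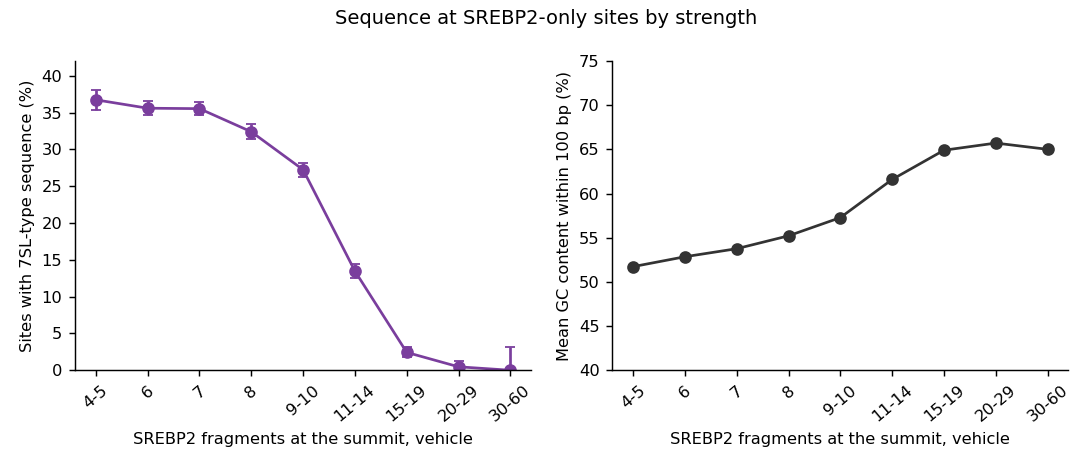
Share of SREBP2-only sites with 7SL-type sequence (percent, left; bars are exact 95% binomial intervals) and mean GC content within 100 bp of the summit (percent, right) by number of SREBP2 fragments with vehicle (x axis). The 7SL-type share falls from 36.7% to 0.468% at 20 to 29 fragments, while GC content rises from 51.7% to 65.7%.

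Of the 15044 7SL-type sites, 4.53% were called in SREBP2 with XY018, against 10.8% of the other 36247. At equal fragment number, averaged over 5 to 14 fragments, the share was 4.70 points lower (3.32 to 6.09) at the 7SL-type sites. Each of the 10 fragment numbers had equal weight in this average, whatever its number of sites. The gap was narrower where 7SL-type sites were most frequent. At 7 fragments, with the most 7SL-type sites (3788), the shares were 4.36% and 5.69%. At 12 fragments, with 204 7SL-type sites, they were 7.84% and 18.7%. The 4.70 points are therefore not the gap at a typical 7SL-type site. In RORγ with XY018, 14.7% of the 7SL-type sites were called, against 19% (18.6 to 19.4%) of the others, and in H3K27ac 5.13% against 5.21%. Promoters held 4.39% of the 7SL-type sites and introns 56.5%.

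The SRE had a higher share at the summits than in the flanks, at 3.34% (3.18 to 3.50%) against 1.73%, with 2.42% over all SREBP2 vehicle regions. Much of this lay in the repeats. Of the 1712 sites with an SRE, 58.4% (56.0 to 60.8%) were 7SL-type. Within 7SL-type windows the SRE was no more frequent at summits, at 6.65% (6.25 to 7.06%), than in flanks of the same kind, at 7.66%. After the SRE, 41.9% of its 1723 matches read TGCACTCCA, and the version TCACACCAC made up 48.8% of them. In the 22210 sites with under 5% high-copy words and no 7SL-type word, the SRE share was 1.31% (1.16 to 1.46%) at summits and 0.826% in such flanks. At q of at most 0.01 the share over all sites was 3%, against 1.72% in their flanks.

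The receptor half-site AGGTCA, which can share its last 3 letters with an SRE, lay at 23.3% (22.9 to 23.6%) of summits and in 15.1% of flanks, and at 17.1% of all SREBP2 vehicle summits. In 7SL-type windows the shares were 26.5% (25.8 to 27.2%) and 21.6%, and in windows with little high-copy sequence 11.5% (11.04 to 11.9%) and 11.9%. The RORE core, which contains a form of that half-site, lay at 0.164% (0.131 to 0.203%) of summits, under the 0.574% of the flanks. Over all SREBP2 vehicle regions it lay at 0.142% of summits and 0.515% of flanks. In regions with both RORγ and H3K27ac the shares were 0.107% and 0.500%. A lower share at summits was thus not particular to the SREBP2-only sites, and the part of GC content in it was not tested. A run of 12 A lay at 8.30% (8.06 to 8.54%) of summits and in 5.73% of flanks.

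The GC box lay at 14.4% (14.1 to 14.7%) of all summits against 6.33% of flanks, and at 30.1% of all SREBP2 vehicle summits. With little high-copy sequence it lay at 23.6% (23.1 to 24.2%) of the summits and in 6.58% of such flanks, and in 7SL-type windows at 6.41% (6.03 to 6.82%) and 5.86%. The E-box, which SREBP factors can also bind, lay at 4.10% (3.93 to 4.28%) of all summits against 2.95% of flanks, below the 4.72% of all SREBP2 vehicle summits. It lay at 6.23% (5.91 to 6.55%) of the summits with little high-copy sequence, against 3.29% in their flanks. Sites with little high-copy sequence had a median of 9 fragments and a GC content of 63.1%, and 14.6% of them were called in SREBP2 with XY018. Their flanks held less GC, at 53.0%, and the part of GC content in the GC box and E-box shares was not tested.

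**Figure D5:**
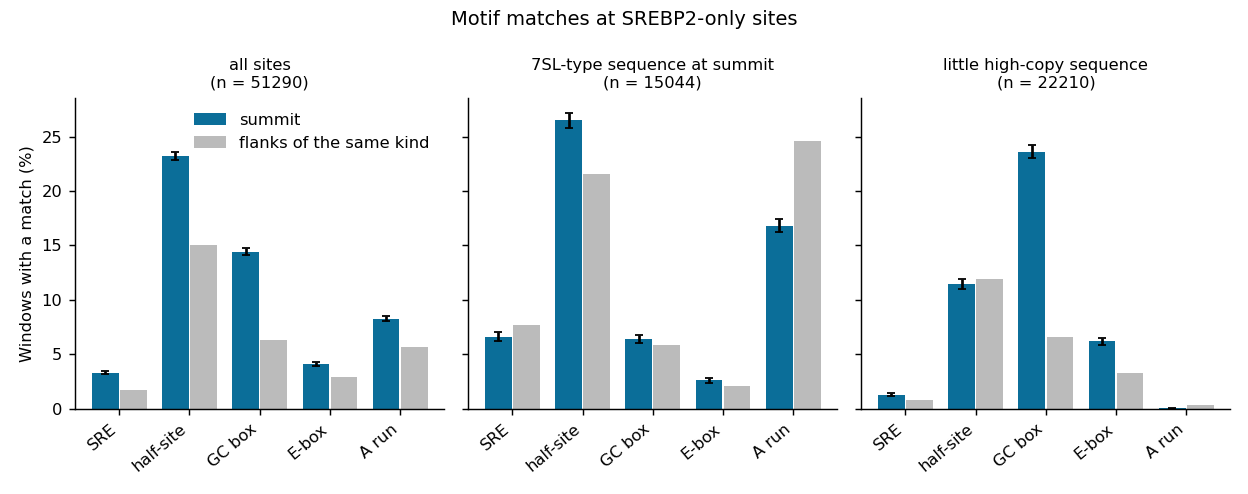
Share of 201-bp windows with a motif match (percent, y axis) at summits of SREBP2-only sites (blue, with exact 95% binomial intervals) and in flanks of the same kind (grey), for all sites, 7SL-type windows and windows with little high-copy sequence. The SRE stands at 3.34% against 1.73% in all sites but at 6.65% against 7.66% in 7SL-type windows, and the GC box at 23.6% against 6.58% where there is little high-copy sequence.

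The 5 sites with an SRE and the highest fold had 18 to 33 fragments and none was 7SL-type. They lay in exons of FOXN4 and CCDC127 and in introns of TRAPPC9, LHPP and a transcript 182 kb from AFDN. With XY018, 4 of the 5 were called in SREBP2 and in RORγ. The shares were 8.99% and 17.7% over all SREBP2-only sites, and 48.4% and 56.8% at those of 20 to 29 fragments. The AFDN-distal site had 24 fragments in the vehicle library (15.4 to 35.7) and 16 in the XY018 library (9.15 to 26.0), and the TRAPPC9 site 33 (22.7 to 46.3) and 20 (12.2 to 30.9). At both, the intervals of the treatments overlap. The FOXN4 site, in a gene of a forkhead transcription factor, had 21 (13 to 32.1) and 8 (3.45 to 15.8) fragments. The CCDC127 site had 31 (21.1 to 44) and 10 (4.80 to 18.4), with no overlap of the intervals. The LHPP site had 18 fragments with vehicle and was not called with XY018.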

How the data were processed

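ChIP-seq lists of 6 libraries were used. The other 6 of the 12 samples were inputs and were not used here. According to the methods of the study, single-end tags were mapped to hg19 with BWA and peaks were called with MACS 2.1.0, whereas the submitters' processing notes name Bowtie2, MACS2 2.1.0 and bedtools. Peaks had been called for each library on its own, and each deposited list gave the authors' fold enrichment, a ratio, and the deposited −log10 p and −log10 q values. The deposited display score and summit offset came with them, and the score was not used.

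From the fold and −log10 p, with the Poisson distribution that MACS assumes, a whole number of fragments was solved for, within 5% of the step between neighbouring numbers, together with a local background. The most common background divided by the shortest region width gave the tags per kb. These steps were tested on simulated data. Regions were shared at 1 bp or more, and 55 SREBP2 rows on other sequences were left out. No region ended beyond its chromosome in GRCh37, and genes and transcript starts came from GENCODE 44 in its lifted version. Genomic position was read at the region midpoint in the order promoter, exon, intron and intergenic, and promoters from any overlap.

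Motif matches were counted in the 100 bp to either side of the summit, on either strand. GC box matches were to GGGCGG, E-box matches to CACGTG and half-sites to AGGTCA. The CCAAT box, AP-1, TEAD, ETS, CTCF, GRHL, FOX and CRE motifs were counted too and are not reported. Copies of 14-base words were counted over the genome on both strands, and high-copy words had at least 2000. Shares have exact (Clopper-Pearson) 95% intervals. Differences at like strength were averaged over 10 equal-sized classes of vehicle fold, with binomial standard errors. Both cover counting error only. The sites named were the 10 with the highest vehicle fold, the 5 with the highest XY018 fold, the 5 with an SRE and the highest vehicle fold, and those within 5 kb of listed genes. The 5 richest windows and 10 richest genes were also named. Members, lists and rules were chosen with earlier results of these data known, and the 7SL-type class after the sequences were seen. Python 3.11.15, numpy 2.4.6, pandas 2.3.3, scipy 1.17.1, pysam 0.24.0 and numba 0.67.0 were used. Some genes and sequences are not reported here.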

Additional observations from a re-analysis of the deposited data

How the results depend on the processing

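With 1 library per group, depth limits the calls at sites of few fragments, and the intervals cover counting error only. No paired analysis was possible because each group held 1 library. Settings marked as added were chosen after the data were seen, and none of the settings turned a direction. Of 34 alternative values of results with an interval, 30 left the interval of the main value and 4 did not. Of 3 alternative numbers of sites, 1 differed by over 1.5 times. At q of at most 0.01 there were 29530 sites. The share called in SREBP2 with XY018 was then 12.2%, and 9.88% at q of at most 0.05, 6.02% with summits within 100 bp, 7.09% with no RORγ or H3K27ac region within 1 kb and, as added settings, 8.47% without XY018 regions on another vehicle region and 10.8% without 7SL-type sites. For RORγ it was 15.1% over 1 kb away, 21.3% at q of at most 0.01 and 19% without 7SL-type sites (added). For H3K27ac it was 3.65% over 1 kb away and 5.46% at q of at most 0.01. Without classes of fold, the differences from regions with RORγ alone and H3K27ac alone were -43.2 and -18.5 points, and without 7SL-type windows (added) -19.8 and -9.05. The median ratio was 0.751 scaled by tags per kb and 0.521 with at least 20 fragments in both libraries together. Promoters held 14.2% with 1000 bp to either side, 40.7% with 5000 bp, 6.56% for protein-coding genes, 11.7% at q of at most 0.01 and 12.0% without 7SL-type sites (added). Introns held 42.5% for protein-coding genes and 47.4% without 7SL-type sites (added). GC content was 56.2% within 50 bp, 57.8% at q of at most 0.01 and 57.9% without 7SL-type sites (added). The SRE share was 1.37% within 50 bp of the summit, against 0.849% in such flanks, and 3% at q of at most 0.01. Without 7SL-type sites (added) it was 1.96%, against 1.68% in their flanks. These flanks still held 7SL-type windows, and 7SL-type flanks of SREBP2-only sites had an SRE in 7.66% of cases. The pair is therefore no like comparison. The cause of these shifts was not tested.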
